A study of Rattus norvegicus with 18 samples.

Results

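The subunits of the mitochondrial oxidative phosphorylation system were taken from the poly(A) RNA count table of rat cervical dorsal root ganglia (DRG). Members were the RefSeq identifiers whose gene symbol begins with Nduf, Uqcr, Cox4 to Cox8, Sdha to Sdhd or Atp5, and 7 assembly factors with such symbols were left out. The rule found 76 genes among 15075 identifiers. By prefix, 34 were counted under complex I, 4 under complex II, 7 under complex III, 15 under complex IV and 16 under complex V. The prefix alone set the complex, also for Ndufa4 (I), Cox7a2l (IV) and Atp5if1 (V). A shared prefix does not establish that a product is a subunit of that complex, and all values per complex carry this limit. The inner ring subunit gene Atp5mc3 was not matched and is not analysed here. More than 10 reads in at least 6 of 18 rats were held by 72 members, and these 72 passed the same filter in each comparison.

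The tissue was whole C6 to C8 DRG of adult Lister hooded rats, 6 rats in each of 3 groups. Naïve rats were neither operated on nor injected. The bPYX+GFP rats had both corticospinal tracts cut in the medullary pyramids (bilateral pyramidotomy) and, a day later, AAV1-CMV-EGFP injected into the forelimb flexors of the treated side. The bPYX+NT3 rats had the same injury and AAV1-CMV-NT3, which encodes human neurotrophin-3. Both vectors use the CMV promoter, which is not restricted to a cell type. Tissue was taken 10 weeks after injury, and the ganglia of the treated side were pooled within a rat and not between rats. No group had the injury without a vector or a vector without the injury, so injury and vector cannot be told apart in the comparisons with naïve rats.

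Oxidative phosphorylation makes most of the ATP of neurons. Complex I (NADH dehydrogenase) and complex II (succinate dehydrogenase) pass electrons from NADH and succinate to ubiquinone, complex III (the cytochrome bc1 complex) passes them on to cytochrome c, and complex IV (cytochrome c oxidase) hands them to oxygen. Complexes I, III and IV pump protons, and complex V (ATP synthase) uses the proton gradient to make ATP. Large sensory neurons with myelinated axons, such as the proprioceptors of the DRG, depend on it for firing and axonal transport. A few core subunits are encoded by mitochondrial DNA and were not among the members. All others are nuclear genes, and many of their promoters bind the factors NRF1 and GABP, an ETS factor also called NRF2.

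A library held 10057787 to 16002410 counted reads (12808006 ± 1788004, SD, n = 18), and the members took between 0.895% and 1.10% of them. The libraries differed in the no-feature share, which is the share of a library's reads that HTSeq assigned to no gene feature because they lay in introns or between genes. It ran from 30.8% to 34.6%, was lowest in rat 11 (bPYX+NT3, 30.8%) and rat 57 (bPYX+GFP, 31.7%), and followed the first principal component of log2 CPM over the 11821 genes tested, which held 45.8% of the variance. In these libraries the share of reads in more than 1 gene was also highest, at 3.41% in rat 11 and 3.31% in rat 57, and that of reads aligned to multiple locations lowest, at 19.7% and 19.0%. No difference of the share between groups passed a two-sided exact permutation test over rats (p = 0.861 for bPYX+GFP against naïve, p = 0.288 for bPYX+NT3 against naïve and p = 0.39 for bPYX+NT3 against bPYX+GFP). For depth the same exact test gave p = 0.175, 0.868 and 0.0758 in the same order, where the smallest p that 6 against 6 rats allow is 0.00216. The columns of the count table are headed by a rat number and a sample label. The groups follow that label, which equals the description of a sample whose title names the group. The count files of single rats held the same values in 18 of 18 rats, but 17 of them are recorded under a sample title of another group. Results under those titles are given beside the main ones. Markers of DRG neurons were present, for example Prph (peripherin) with at least 1426 reads and Isl1 with at least 549 reads in every rat. Some genes that neurons or all cells use were listed at or near 0, among them Snap25 (0 to 7 reads) and the glycolytic enzyme Aldoa (0 or 1 read), so a low count in this table is not read as low expression.

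Sequences of 6 members are shown because pairs of them, each from the same complex, moved in opposite directions across the rats, or because the gene had the largest fold change. Each is the 250 bases before the annotated start, from RefSeq on GRCr8, the build of the reference and not of the authors' alignment. Capitals mark the core motif of NRF1 (GCGCATGCG) or of ETS factors (CCGGAAG), searched on both strands.

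Uqcrc1 (complex III core protein, NRF1 core, chr8:118467973-118468222, plus strand): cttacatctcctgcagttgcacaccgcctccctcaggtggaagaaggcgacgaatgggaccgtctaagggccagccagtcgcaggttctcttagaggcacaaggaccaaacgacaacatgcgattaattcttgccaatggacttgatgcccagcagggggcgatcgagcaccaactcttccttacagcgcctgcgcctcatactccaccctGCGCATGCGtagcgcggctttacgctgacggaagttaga
Uqcrc2 (complex III core protein, ETS core, chr1:184598990-184599239, plus strand): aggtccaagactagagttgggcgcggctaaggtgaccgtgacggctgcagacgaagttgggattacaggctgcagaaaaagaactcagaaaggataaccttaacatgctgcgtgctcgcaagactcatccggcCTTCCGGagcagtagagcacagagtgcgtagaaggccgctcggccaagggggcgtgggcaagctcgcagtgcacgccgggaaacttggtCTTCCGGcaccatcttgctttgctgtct
Sdhb (complex II iron-sulphur subunit, ETS core, chr5:158547684-158547933, plus strand): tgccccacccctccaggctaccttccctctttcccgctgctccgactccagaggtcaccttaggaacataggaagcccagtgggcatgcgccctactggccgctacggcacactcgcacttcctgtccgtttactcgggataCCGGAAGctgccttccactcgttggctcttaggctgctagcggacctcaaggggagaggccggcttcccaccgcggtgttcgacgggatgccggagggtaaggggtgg
Sdhd (complex II membrane anchor, ETS core, chr8:59850642-59850891, minus strand): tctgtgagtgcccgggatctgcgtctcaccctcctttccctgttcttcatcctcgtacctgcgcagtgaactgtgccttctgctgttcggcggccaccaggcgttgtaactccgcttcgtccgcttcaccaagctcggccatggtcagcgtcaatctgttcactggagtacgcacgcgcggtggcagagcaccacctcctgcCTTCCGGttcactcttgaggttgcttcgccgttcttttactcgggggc
Ndufs1 (complex I iron-sulphur subunit, ETS core, chr9:72073606-72073855, minus strand): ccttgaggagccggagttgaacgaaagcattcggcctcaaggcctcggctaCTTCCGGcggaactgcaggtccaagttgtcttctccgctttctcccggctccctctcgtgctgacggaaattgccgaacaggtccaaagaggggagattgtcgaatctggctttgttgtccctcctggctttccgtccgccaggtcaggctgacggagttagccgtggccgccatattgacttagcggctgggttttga
Ndufb7 (complex I accessory subunit, ETS core, chr19:41477292-41477541, minus strand): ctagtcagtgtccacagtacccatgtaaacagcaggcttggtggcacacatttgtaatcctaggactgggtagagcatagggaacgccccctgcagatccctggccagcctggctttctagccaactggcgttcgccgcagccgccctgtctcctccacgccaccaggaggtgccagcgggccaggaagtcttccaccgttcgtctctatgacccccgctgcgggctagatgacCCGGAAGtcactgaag

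In the promoters as given by RefSeq (250 bases before and 50 after the start), the NRF1 core was found in 6 of 68 members and in 1.52% of all 33469 promoters. The ETS core was found in 20 of 68 members and in 8.75% of all promoters. Neither motif contains the other. Among members whose level fell with the no-feature share, described below, 12 of 36 promoters held the ETS core. It was in 6 of 16 among those whose level rose and in 2 of 12 among those passing in neither direction. The NRF1 core was in 5 of 36, 1 of 16 and 0 of 12 promoters in the same order. These differences were not tested.

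Subunits of the same complex did not move together from rat to rat. In every complex some members were high in rats 11 and 57 and others were low there. Levels are CPM, the counts of a gene relative to the size of its library, scaled by edgeR's trimmed mean of M values (TMM) over the 18 rats. Of the 72 members tested, 41 were lower where the share was higher and 17 were higher, by a two-sided permutation test of Pearson's r on log2 CPM with Benjamini-Hochberg adjustment over 11821 genes. Over all genes the same directions held 33.7% and 32.3%, beside 56.9% of the members falling with the share and 23.6% rising. Genes of both directions were thus common in the whole table. That a complex holds both is not particular to these members. The remaining 14 members passed in neither direction. Both values of each correlation come from the same library. The sign was the same within each of the 3 groups and without rats 11 and 57, the libraries farthest from the median share, in 40 of the 41 and in 17 of the 17. This counts the sign only and not the strength. The weakest r so counted was -0.00075 without the 2 rats. By Spearman's rho, 52 of 72 members passed at an adjusted permutation p under 0.05, as did 7030 of 11821 genes.

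**Figure D1:**
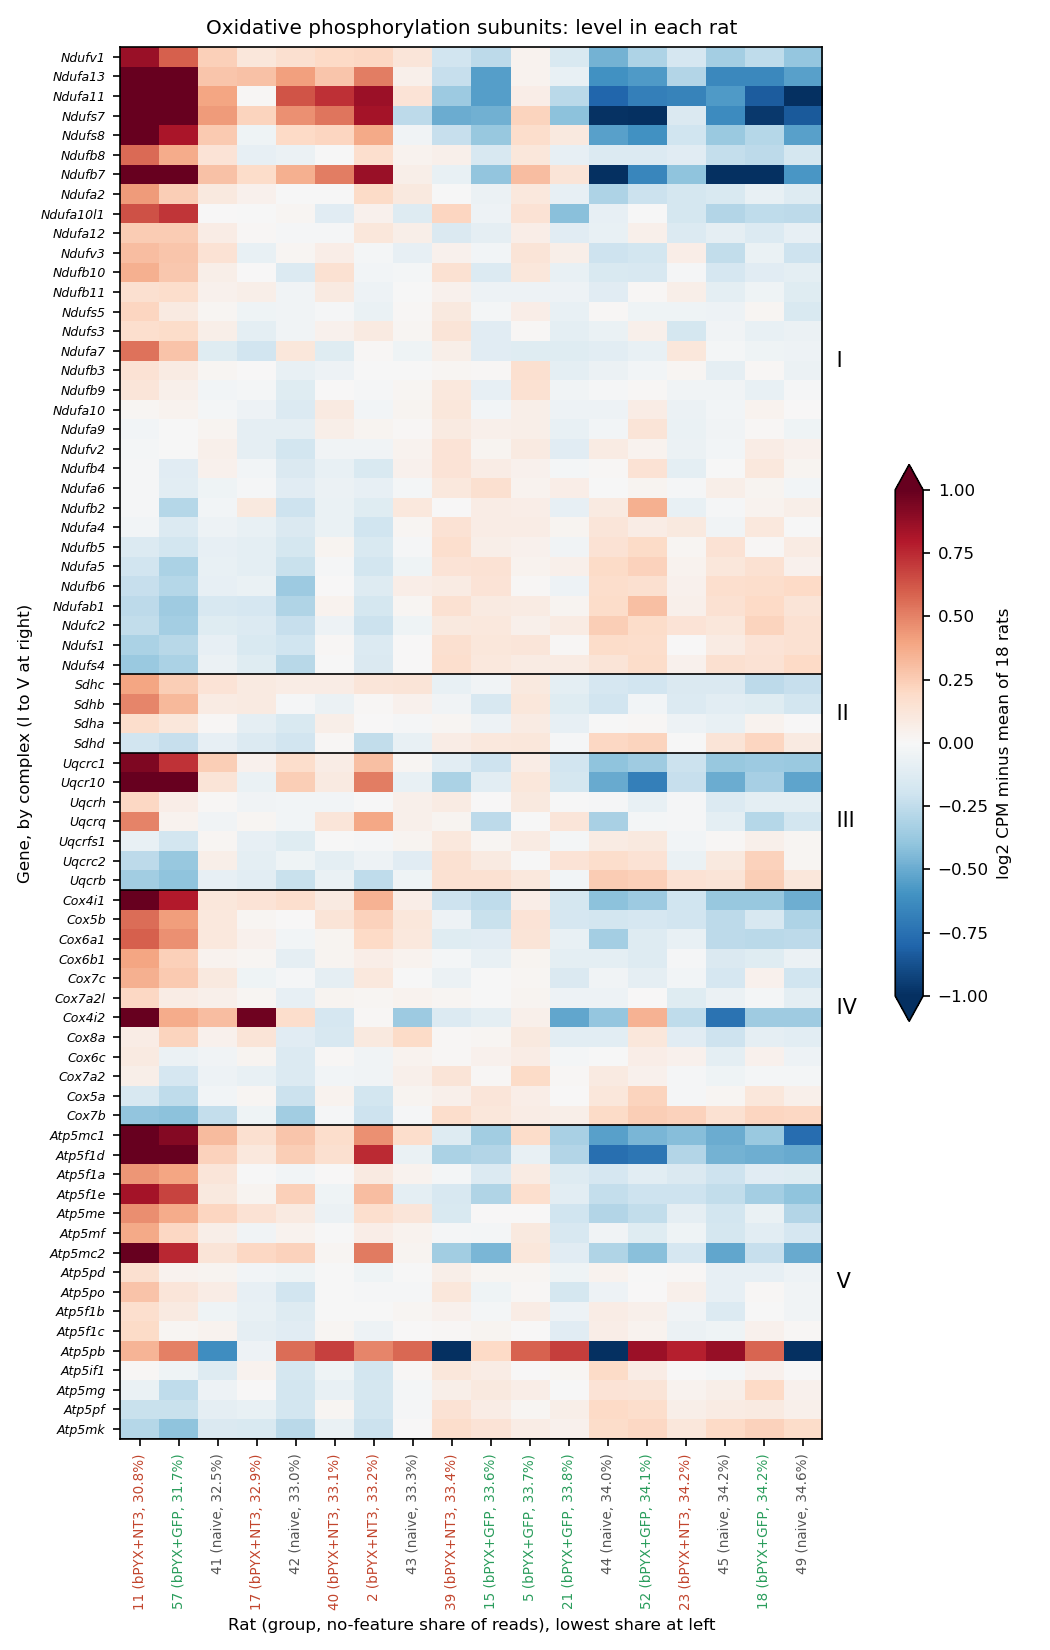
Level of tested subunits (rows, ordered within complexes I to V by their correlation with the no-feature share) in each of 18 rats (columns, ordered from the lowest share at 30.8% to the highest at 34.6%). Colour is log2 CPM minus the gene's mean over 18 rats, limited to values between -1 and 1, and in each complex the upper rows are high at left and the lower rows are high at right.

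In complex I, 18 of 33 members fell with the share (54.5%) and 8 rose (24.2%), against 33.7% and 32.3% of all genes. Ndufv1, the flavoprotein that takes electrons from NADH, spanned 35.0, 45.8 and 57.6 CPM (lowest, median and highest) in naïve rats, 39.3, 42.2 and 73.7 CPM in bPYX+GFP rats and 42.6, 54.4 and 89.0 CPM in bPYX+NT3 rats. The ranges of the 3 groups overlapped, and rats 57 and 11 held the highest values of their groups. Its r with the no-feature share was -0.95 and its Spearman rho -0.88 over 18 rats (permutation p = 1e-05 for both, the smallest that 100000 permutations can give; adjusted p = 4.5e-05 and 9.7e-05), and r was -0.86 without rats 11 and 57. Ndufs1, the largest iron-sulphur subunit, went the other way. It spanned 514, 609 and 671 CPM in naïve, 488, 640 and 667 CPM in bPYX+GFP and 473, 563 and 660 CPM in bPYX+NT3 rats, and rats 57 and 11 held the lowest values of all rats. Its r was 0.86 and its rho 0.75 (permutation p = 1e-05 and 0.00057; adjusted p = 4.5e-05 and 0.00175), and r was 0.73 without rats 11 and 57. Ndufs4, an accessory subunit needed for a stable complex, rose with the share as well (r = 0.89), whereas the iron-sulphur subunits Ndufs7 (r = -0.91) and Ndufs8 (r = -0.91) fell.

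Complex II has only 4 subunits, of which 2 fell with the share and 1 rose. So few genes cannot be told from the shares over all genes, 33.7% and 32.3%. Sdhb, its iron-sulphur subunit (r = -0.91), and Sdhc, a membrane anchor (r = -0.93), fell with the share, while the second anchor Sdhd rose (r = 0.75, rho = 0.78, permutation p = 1e-04 and 0.00022; adjusted p = 0.000286 and 0.000818). Sdhd spanned 137, 158 and 181 CPM in naïve, 134, 169 and 183 CPM in bPYX+GFP and 132, 149 and 165 CPM in bPYX+NT3 rats. The flavoprotein Sdha, which oxidises succinate, passed in neither direction and was among the steadier members, with an SD within groups of 0.08 on the log2 scale.

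In complex III every member passed, 4 falling (57.1%) and 3 rising (42.9%) with the share, against 33.7% and 32.3% of all genes. The 2 large core proteins were opposed. Uqcrc1 spanned 54.7, 64.6 and 85.9 CPM in naïve, 56.0, 62.9 and 119 CPM in bPYX+GFP and 62.1, 75.4 and 138 CPM in bPYX+NT3 rats, with rats 57 and 11 above all others. Uqcrc2 spanned 391, 435 and 477 CPM, 325, 457 and 496 CPM, and 353, 400 and 471 CPM in the same groups, with rats 57 and 11 below all others. The r was -0.96 for Uqcrc1 and 0.74 for Uqcrc2, or -0.89 and 0.45 without rats 11 and 57. The rho was -0.90 and 0.65 (permutation p = 1e-05 and 0.00421; adjusted p = 9.7e-05 and 0.00919), and the permutation p of r was 1e-05 and 0.00065 (adjusted p = 4.5e-05 and 0.00145). The Rieske iron-sulphur protein Uqcrfs1 rose with the share (r = 0.62), as did the ubiquinone-site subunit Uqcrb (r = 0.85). Cyc1, the cytochrome c1 of the same complex, lies outside the symbol rule and fell with it (r = -0.94).

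In complex IV, 8 of 12 tested members fell with the share (66.7%) and 2 rose (16.7%), against 33.7% and 32.3% of all genes. Cox4i1, the ubiquitous form of subunit 4, spanned 64.6, 82.2 and 102 CPM in naïve, 69.7, 78.1 and 157 CPM in bPYX+GFP and 78.6, 98.0 and 190 CPM in bPYX+NT3 rats (r = -0.95). Rats 57 and 11 again stood above every other rat. Its partner in the first steps of assembly, Cox5a, rose (r = 0.69), and so did Cox7b (r = 0.89). Cox6c was the steadiest member of all, between 118 and 138 CPM over the 18 rats, with an SD within groups of 0.05 on the log2 scale against a median of 0.21 over all genes tested.

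In complex V, 9 of 16 fell with the share (56.25%) and 3 rose (18.75%), against 33.7% and 32.3% of all genes. The ring subunit gene Atp5mc1 (r = -0.95) and the central stalk subunits Atp5f1d (delta, r = -0.93) and Atp5f1e (epsilon, r = -0.92) fell, and so did Atp5f1a, the alpha subunit (r = -0.92). Atp5mk, a small membrane subunit, rose (r = 0.86), as did Atp5pf of the peripheral stalk (r = 0.79). The catalytic beta subunit Atp5f1b passed in neither direction, and its level lay between 1090.1 and 1346 CPM in all 18 rats. Atp5pb, of the peripheral stalk, had 0 to 19 reads and was at 0 in rats 44, 49 and 39. Its SD within groups was the largest of all members, 1.10 on the log2 scale. RefSeq lists 3 pseudogenes of it, and its counts are uncertain. Ndufs4, Ndufa13, Cox6c, Cox7b, Atp5f1e, Atp5pf and Atp5mk were chosen for naming after their values were seen.

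**Figure D2:**
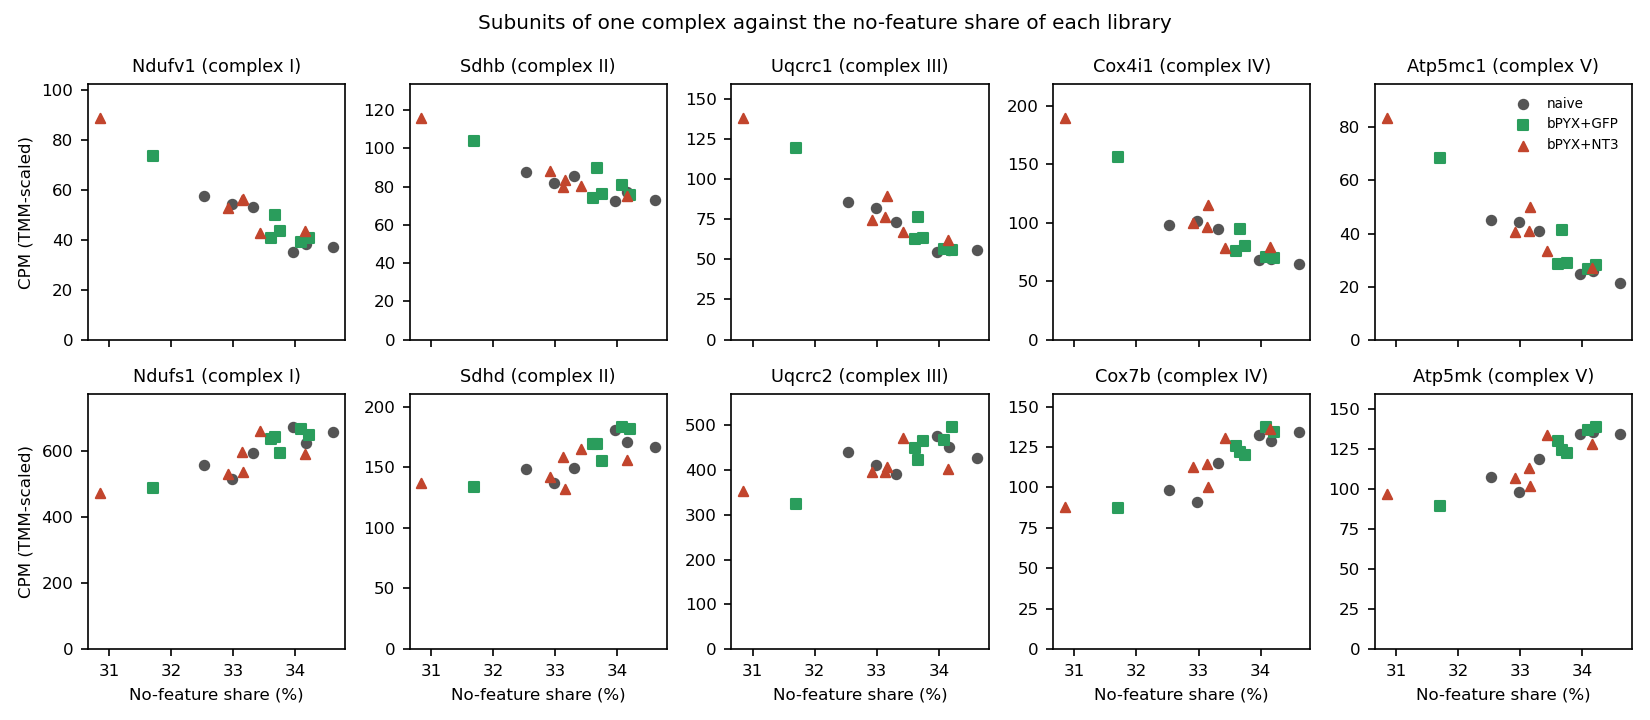
CPM (TMM-scaled, vertical axes from 0) of 2 subunits from each complex against the no-feature share of the library (horizontal axes, %), with 1 point a rat and the 3 groups by colour and shape. The upper row falls with the share and the lower row rises with it, and rat 11 at 30.8% and rat 57 at 31.7% are the leftmost points.

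Other mitochondrial genes also held members of both directions, in other proportions. Of 33 assembly factors tested, 10 fell with the no-feature share and 18 rose. Of 18 genes of the pyruvate dehydrogenase complex and the tricarboxylic acid cycle, 10 fell and 7 rose. The 64 mitochondrial ribosomal proteins tested had 21 falling and 17 rising. Beside these stand the shares over all genes, 33.7% falling and 32.3% rising. In glycolysis, 11 of 13 tested genes fell and none rose, for example Gapdh (r = -0.95). Markers of cell types moved with the share as well, with 6 of 9 DRG neuron markers falling (Tubb3, r = -0.95) and 2 rising (Nefm, r = 0.52, and Isl1, r = 0.52), and with 3 of 7 Schwann cell markers falling and 1 rising. In whole ganglia, fewer cells of a type and less RNA per cell cannot be told apart. The part of library quality or cell makeup in the opposed movement was not tested.

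Between bPYX+GFP and naïve rats, the question was whether injury with the control vector changed these genes. None of the 72 members passed edgeR's quasi-likelihood test at an unadjusted p under 0.05. Over all genes, 0.733% were called higher and 2.52% lower at that threshold. The smallest unadjusted p among members was 0.133, for Cox6c, and the likelihood ratio test and DESeq2 also called 0 members. The fold changes were small and mostly of the same sign. Of 72 members 69 were above 0, or 95.8%, against 56.1% of all genes, and their median log2 fold change was 0.06 against 0.01 over all genes. The complex medians were 0.06 in complexes I and II, 0.04 in complex III, 0.07 in complex IV and 0.05 in complex V. The median standard error of a single member's fold change was 0.09, larger than each of these medians. It does not measure the uncertainty of a median over genes, which was not computed. Without rat 57 the members' median was 0.02 with 46 of 72 above 0. Grouping by the recorded titles gave a median of -0.07, with 13 above 0 and 1 member, Cox8a, called lower.

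Between bPYX+NT3 and naïve rats, 5 of 72 members were called higher and 0 lower at an unadjusted p under 0.05, and none at an adjusted p under 0.05, as for all genes in each of the 3 comparisons (0%). Over all genes, 3.09% were called higher and 2.92% lower. The called share of members, 6.94%, was above the share over all genes, but leaving out rat 11 reduced the count to 1. Without rat 23 it was 14. Calls over all genes moved as well, from 703 of 11693 to 365 of 11636 without rat 11 and 1387 of 11670 without rat 23. The 5 genes were Ndufb10, Ndufb7 and Ndufs7 of complex I, Uqcrq of complex III and Atp5f1d of complex V.

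Ndufb10, an accessory subunit of the membrane arm, spanned 50.5, 52.4 and 59.4 CPM in naïve, 50.8, 53.3 and 68.5 CPM in bPYX+GFP and 55.9, 60.2 and 72.8 CPM in bPYX+NT3 rats. All 6 bPYX+NT3 rats lay above the naïve median, and the ranges overlapped. Relative to naïve it was higher by 0.19 ± 0.07 on the log2 scale (SE; edgeR p = 0.0196, adjusted p = 0.607; exact permutation p = 0.0195), and by 0.13 in a fit with the no-feature share as covariate (p = 0.0352). Leaving out a rat kept the call in 12 of 12 fits.

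Uqcrq, a small ubiquinone-binding subunit of complex III, spanned 10.5, 12.5 and 13.6 CPM in naïve, 10.8, 13.0 and 14.3 CPM in bPYX+GFP and 13.0, 13.9 and 18.6 CPM in bPYX+NT3 rats. Again 6 of 6 bPYX+NT3 rats were above the naïve median, with overlapping ranges. The increase over naïve was 0.29 ± 0.11 on the log2 scale (SE; edgeR p = 0.0199, adjusted p = 0.607; exact permutation p = 0.0152), and 0.19 with the covariate (p = 0.0445). It was called in 10 of 12 fits that left out a rat, and not without rat 11 or without rat 2, its highest bPYX+NT3 rats.

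The largest fold changes were those of genes with few reads. Ndufb7, an accessory subunit on the intermembrane space side of complex I, had 7 to 166 reads. It spanned 0.706, 1.92 and 2.93 CPM in naïve, 0.724, 2.09 and 7.08 CPM in bPYX+GFP and 1.67, 2.95 and 10.1 CPM in bPYX+NT3 rats, the highest values being those of rats 57 and 11. The log2 fold change of bPYX+NT3 over naïve was 1.10 ± 0.46 (SE; edgeR p = 0.03, adjusted p = 0.607; exact permutation p = 0.0758), and 0.47 with the covariate (p = 0.0768).

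Ndufs7, which carries the last iron-sulphur cluster before ubiquinone, had 6 to 99 reads. It spanned 0.605, 0.963 and 1.92 CPM in naïve, 0.592, 0.954 and 4.17 CPM in bPYX+GFP and 0.919, 1.82 and 6.03 CPM in bPYX+NT3 rats. Relative to naïve the difference was 1.02 ± 0.45 on the log2 scale (SE; edgeR p = 0.0396, adjusted p = 0.607; exact permutation p = 0.0952), and 0.38 with the covariate (p = 0.129). Atp5f1d spanned 12.6, 17.9 and 25.4 CPM in naïve, 12.9, 17.4 and 48.9 CPM in bPYX+GFP and 17.2, 23.5 and 64.5 CPM in bPYX+NT3 rats. Over naïve it changed by 0.67 ± 0.31 on the log2 scale (SE; edgeR p = 0.0478, adjusted p = 0.607; exact permutation p = 0.136), and 0.22 with the covariate (p = 0.169). Ndufb10, Ndufb7, Ndufs7 and Atp5f1d were each highest in rat 11 and next highest in rat 57, and Uqcrq was highest in rat 11. Without rat 11 only Ndufb10 of the 5 was called, at a log2 fold change of 0.14.

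**Figure D3:**
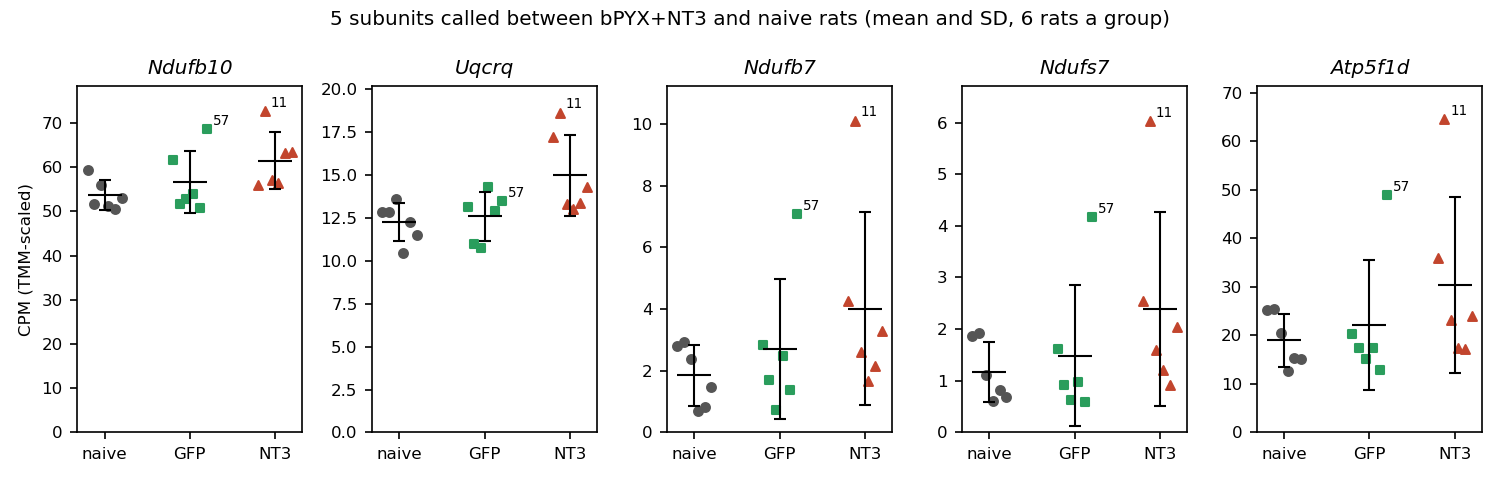
CPM (TMM-scaled, from 0) of the 5 subunits called between bPYX+NT3 and naïve rats, with 1 point a rat, the mean and SD of 6 rats in black, and rats 11 and 57 numbered. The groups overlap in all 5 genes, and rat 11 is the highest rat in each, at 72.8 CPM for Ndufb10, 18.6 for Uqcrq, 10.1 for Ndufb7, 6.03 for Ndufs7 and 64.5 for Atp5f1d.

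Over all members the median log2 fold change of bPYX+NT3 over naïve was 0.07, against 0.00 (0.000507) over all genes, and 52 of 72 were above 0. The complex medians were 0.06, 0.09, 0.07, 0.08 and 0.11 for complexes I to V. Within complexes the values spread around 0 more widely than between bPYX+GFP and naïve rats, from -0.10 (Uqcrb) to 1.10 (Ndufb7), with the members that fell with the no-feature share on the positive side. The values of Ndufv1 (0.30, exact permutation p = 0.193), Cox4i1 (0.41, p = 0.152) and Uqcrc1 (0.32, p = 0.201) did not pass, nor did those of Ndufs1 (-0.10, p = 0.292) or Sdhd (-0.10, p = 0.26). Grouping by the recorded titles gave 0 calls and a median of -0.04.

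**Figure D4:**
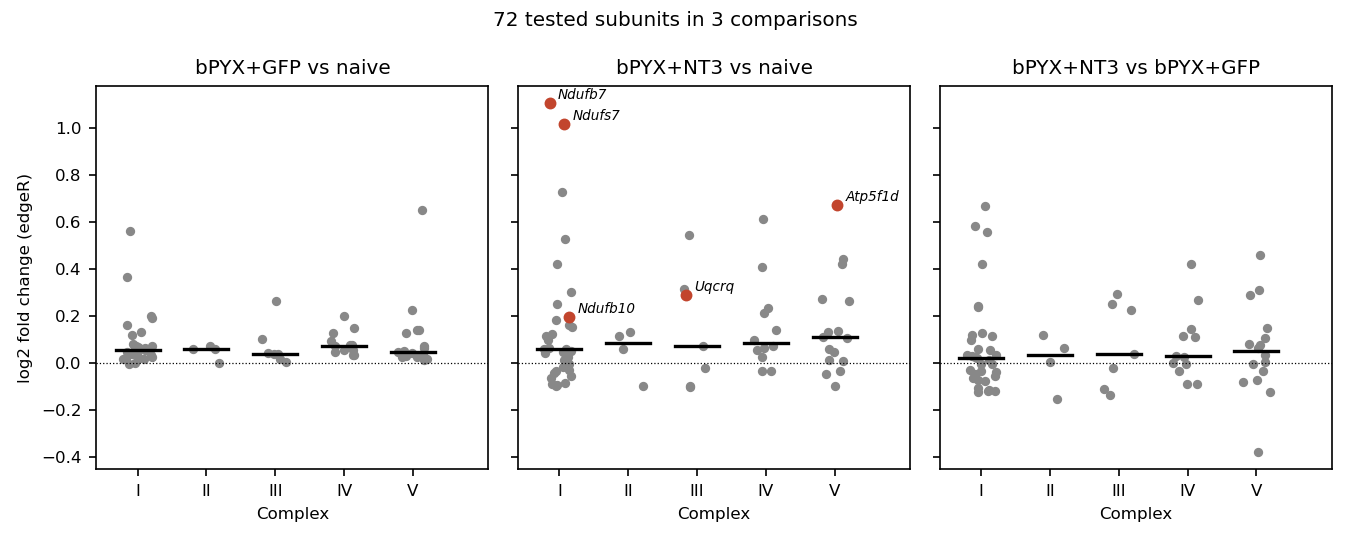
edgeR log2 fold change of the 72 tested subunits (points) by complex in the 3 comparisons, with the median of each complex as a bar. Red points are the 5 genes with an unadjusted p under 0.05, all between bPYX+NT3 and naïve rats, and values near 0 make up most of each column.

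Between bPYX+NT3 and bPYX+GFP rats, which differ in the transgene only, 0 of 72 members were called with all 12 rats, where 1.08% of all genes were called higher and 0.654% lower. The smallest unadjusted p was 0.0576, for Uqcrq (0.25 ± 0.12, SE), and the likelihood ratio test and DESeq2 also called 0. The members' median log2 fold change was 0.03, against 0.00 (0.00494) over all genes, and 42 of 72 were above 0. The number above 0 was 45 without rat 57, and 24 without rat 11 or with the no-feature share as covariate. Grouping by the recorded titles gave 0 members called, where 263 of 11646 genes were, and a median of 0.01 with 43 of 72 above 0. The count of called members depended on rat 57. Without it, 13 members were called higher and 11 lower, again none at an adjusted p under 0.05 (lowest 0.251), where 13.1% of all genes were called higher and 6.77% lower. The members' shares were 18.1% and 15.3%. Without both rats 11 and 57, 7 members were called higher and 11 lower, where 7.48% and 5.26% of all genes were (lowest adjusted p 0.385).

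The genes called without rat 57 were the opposed ones. The 13 called higher in bPYX+NT3 rats all had a negative r with the no-feature share, and the 11 called lower all had a positive r. The higher ones without rats 11 and 57 were Ndufv1 (log2 fold change 0.23), Ndufs7 (0.82), Ndufa11 and Ndufa13 of complex I, Uqcrc1 (0.23), Cox4i1 (0.26) and Atp5f1d (0.50). The lower ones included Ndufs1 (-0.13), Sdhd (-0.19), Uqcrc2 (-0.15), Cox5a (-0.12) and Atp5mk (-0.16). The no-feature share itself was 33.9% ± 0.267 (SD, n = 5) in bPYX+GFP rats without rat 57 and 32.9% ± 1.11 (n = 6) in bPYX+NT3 rats, or 33.4% ± 0.481 (n = 5) without rat 11 (exact permutation p = 0.0606 and 0.0794). How much of these differences goes with the share and how much with the transgene cannot be told apart at this number of rats.

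The summed level of the members changed little. Over all 76 it was 9304 ± 333 CPM (SD, n = 6) in naïve, 9614 ± 251 CPM in bPYX+GFP and 9544 ± 467 CPM in bPYX+NT3 rats. For complex I the means were 3336 ± 154, 3435 ± 116 and 3355 ± 160 CPM in the same order. For complex IV they were 1374 ± 60.0, 1438 ± 57.3 and 1457 ± 96.7 CPM, and for complex V 2946 ± 116, 3052 ± 143 and 3083 ± 232 CPM. The ranges of the 3 groups overlapped in every complex, and the highest value of complexes IV and V was that of rat 11.

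**Figure D5:**
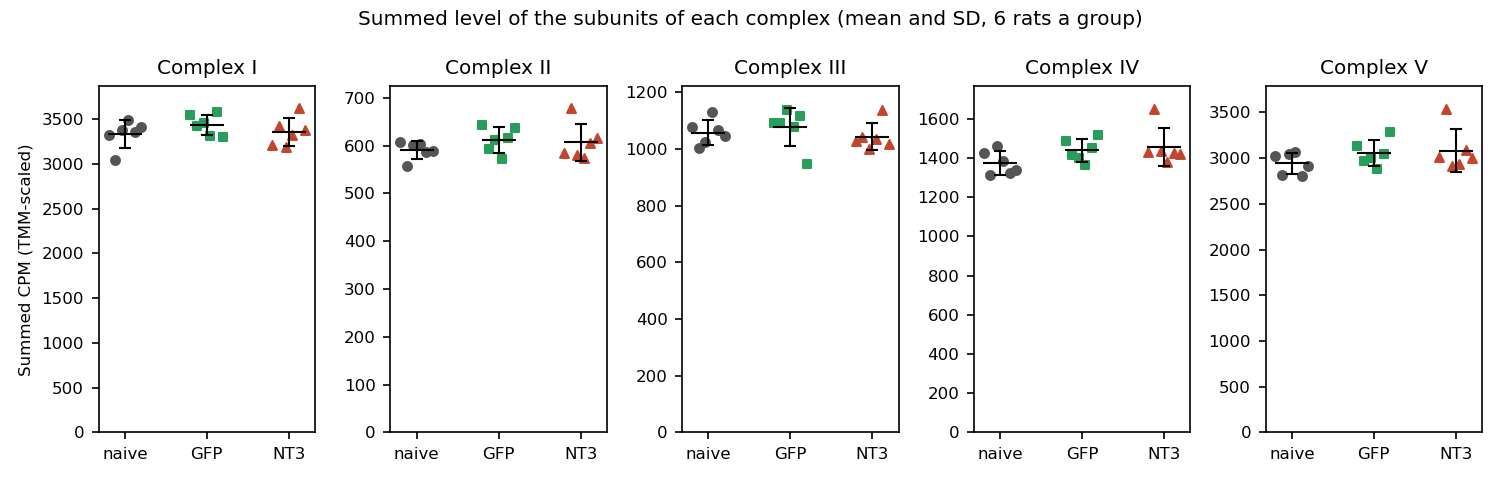
Summed CPM (TMM-scaled, from 0) of the subunits of each complex in naïve, bPYX+GFP and bPYX+NT3 rats, with 1 point a rat and the mean and SD of 6 rats in black. The groups overlap in every complex, and for complex III the means are 1057, 1076 and 1043 CPM.

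Of the tissue forms of complex IV, those known from heart and skeletal muscle were nearly without reads. Cox6a2 was listed at 0 in 17 of 18 rats with 1 read in the other, and Cox8b at 0 in 12 rats with at most 7 reads. Their widely expressed counterparts Cox6a1 and Cox8a had at least 710 and 979 reads in every rat. The 12 striated muscle markers summed to 111 to 131 CPM in naïve, 108 to 173 CPM in bPYX+GFP and 114 to 169.9 CPM in bPYX+NT3 rats, of which Pvalb, also a gene of proprioceptive neurons, made up 97.9 to 150.3 CPM over the 18 rats. Ckm, Tnnc2, Mb, Tnni2 and Myh2 were listed at 0 in some rats, and the 5 muscle markers tested all fell with the no-feature share. The testis form Cox6b2 had at most 9 reads. Ndufa4l2, a hypoxia-responsive relative of Ndufa4, had 1 to 22 reads and passed 10 only in rat 11. These 4 members did not pass the filter on reads. Cox4i2, the form of subunit 4 known from lung and from pericytes, had 10 to 52 reads, spanning 0.752, 1.03 and 1.73 CPM in naïve, 0.905, 1.34 and 1.81 CPM in bPYX+GFP and 1.12, 1.30 and 3.17 CPM in bPYX+NT3 rats. Between bPYX+NT3 and naïve its value differed by 0.61 ± 0.32 on the log2 scale (SE; edgeR p = 0.0752, exact permutation p = 0.152), and 0 of 8 pericyte and smooth muscle markers were called in that comparison.

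Genes around the complexes gave few calls. Among 5 further genes tied to oxidative phosphorylation but outside the symbol rule (Cyc1, Cycs, Slc25a4, Slc25a5 and Cox17), 0 were called in any comparison. The same held for 33 assembly factors, for 63 or 64 mitochondrial ribosomal proteins and for 18 regulators of mitochondrial biogenesis, among them Ppargc1a, the coactivator of that programme, with log2 fold changes of 0.09, 0.02 and -0.06 in the 3 comparisons. In the tricarboxylic acid cycle 1 of 18 genes, Suclg2, was called lower between bPYX+NT3 and naïve rats (-0.16), and in glycolysis 1 of 13, Aldoc, was called higher (0.36). Marker genes moved in part. Pmp22 of Schwann cells was called lower in both injured groups against naïve (-0.31 in each), and the sensory neuron gene Avil was called higher between bPYX+NT3 and naïve rats (0.19). Summed over the 10 neuron markers, the level was 10906 to 13146 CPM in naïve, 11978 to 14265 CPM in bPYX+GFP and 10914 to 14283 CPM in bPYX+NT3 rats, and over the 7 Schwann cell markers 3570.3 to 4927, 3155 to 4028 and 3517 to 3940.4 CPM. In the smaller marker lists Kcnj10 of satellite glia and Acta2 of smooth muscle were called higher between bPYX+NT3 and bPYX+GFP rats, Tnnt2 of muscle higher in both injured groups against naïve, and the adipocyte gene Adipoq lower in both comparisons of bPYX+NT3 rats, with Fabp4 lower against bPYX+GFP. Markers of macrophages, endothelium and erythroid cells gave no call (0 of 10 tested). The part of such shifts in the members' values was not tested.

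Of the 76 members, 41 have at least 1 related gene or pseudogene in RefSeq whose symbol extends theirs. Reads that aligned to multiple locations were not counted, so levels of genes with near-identical copies are uncertain, for example Ndufb4 (4 related genes and 7 pseudogenes), Atp5mg (2 and 8) and Atp5mc2 (2 and 4).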

How the data were processed

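The authors aligned 50 bp paired-end reads of stranded poly(A) libraries to Rnor_6.0 with TopHat2, kept 1 read per set of duplicates with Picard and counted reads per RefSeq identifier with HTSeq; removal of duplicates can lower the counts of abundant genes. The deposited values are raw whole-number counts that are not normalized. Of 15075 identifiers, 14193 were matched to a symbol of the RefSeq table (GRCr8, used for names and promoters), and 882 were not. The filter (more than 10 reads in 6 or more of the rats compared) was followed by a test in edgeR 4.0.16 (quasi-likelihood, TMM, R 4.3.3) on the 12 rats of that comparison, adjusted by Benjamini-Hochberg over the whole table of genes tested. log2 CPM used a prior count of 2. Exact and permutation tests (two-sided, 100000 permutations with fixed seed for correlations) used numpy 2.4.6 and scipy 1.17.1. Scripts were tested on simulated data. The members and lists were chosen with earlier results of these data known. Genes were named if called at an unadjusted p under 0.05, if they had the 2 largest changes in a comparison or the 2 highest mean CPM of a complex, if they stood in a list of core and tissue-form subunits, or if they did not pass the filter; others were named after their values were seen. Alternatives were the likelihood ratio test, DESeq2 1.42.0, other scalings and filters, a fit over 3 groups, the no-feature share as covariate, the recorded titles and leaving out each rat. Counting error alone is covered by read numbers. Some genes are included in the counts but not reported here by name, and the plot of levels by rat leaves out such a row.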

Additional observations from a re-analysis of the deposited data

Results flagged for a closer look

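Within groups of 6 rats, the highest or lowest value was compared with its nearest neighbour, and 21 of 78 groups of values stood out. Chance flags about 1 in 20 among independent values that were not selected. These values came from the same rats, and some genes, such as Cox7b and Atp5mk, were named after their values were seen. The count of flags is therefore not compared with that rate. In bPYX+GFP rats 11 of the 21 were those of rat 57: the no-feature share (31.7%, others from 33.6%), Atp5f1d (48.9 CPM, others up to 20.3), Atp5mc1 (68.7 CPM, others up to 41.3), Cox4i1 (157 CPM, others up to 94.8), Ndufb7 (7.08 CPM, others up to 2.84), Ndufs7 (4.17 CPM, others up to 1.61), Ndufv1 (73.7 CPM, others up to 50.01) and Uqcrc1 (119 CPM, others up to 76.2) were beyond all others, as were the low values of Atp5mk (89.5 CPM, others from 122), Cox7b (87.1 CPM, others from 120.3) and summed complex III (948 CPM, others from 1076).

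In bPYX+NT3 rats the value that stood apart was that of rat 11 for the no-feature share (30.8%, others from 32.9%), Cox4i1 (190.0 CPM, others up to 115), Ndufb7 (10.1 CPM, others up to 4.25), Ndufs7 (6.03 CPM, others up to 2.54), Ndufv1 (89.0 CPM, others up to 56.3), Sdhb (116 CPM, others up to 88.0), Uqcrc1 (138 CPM, others up to 89.1), summed complex IV (1649 CPM, others up to 1436) and summed complex V (3539 CPM, others up to 3094). Rat 39 stood apart for summed complex III (1137 CPM, others up to 1042).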

How the results depend on the processing

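The median log2 fold change over all members moved by less than 1 SD between rats under every alternative run in each comparison. Of 335 medians per complex under an alternative, 328 stayed by this measure and 7 moved. The SD within groups of the members' mean log2 CPM was 0.12, larger than each of the 3 medians (0.06, 0.07 and 0.03). A move that removed a whole median would thus also stay within it. The sign of the median turned under the recorded titles in both comparisons with naïve rats (-0.07 and -0.04). For bPYX+NT3 against bPYX+GFP it turned without rat 11 (-0.03) or with the covariate (-0.02). The count of members called between bPYX+NT3 and naïve rats was 3 in a fit over 3 groups. It was 2 with the no-feature share as covariate and 0 under the recorded titles, and ran from 1 to 14 when single rats were left out. It was 1 without rat 11, 2 without rat 44, 45 or 49, and 3 without rat 2. Without rat 41 it was 9, without rat 39 it was 11 and without rat 23 it was 14. Calls over all genes moved as well, from 703 of 11693 with all 12 rats to 365 of 11636 without rat 11. They were 1185 of 11652 without rat 41, 1024 of 11668 without rat 39 and 1387 of 11670 without rat 23. Between bPYX+GFP and naïve rats the count of members called was 1 under the recorded titles and 0 in every fit without a single rat. For bPYX+NT3 against bPYX+GFP it was 1 in a fit over 3 groups, 0 to 24 when single rats were left out (24 without rat 57) and 18 without both rats 11 and 57, a fit chosen after seeing the data. Under the recorded titles 91 values of single genes changed sign, of which 6 were called in either grouping: Ndufb10 (-0.0912), Ndufb7 (-0.69), Ndufs7 (-0.74), Atp5f1d (-0.50) and Uqcrq (-0.18) between bPYX+NT3 and naïve rats, and Cox8a (-0.14, called) between bPYX+GFP and naïve rats. A replicate block was also chosen after seeing the data. It gave 22 of 72 members (18 higher, 4 lower) between bPYX+NT3 and naïve rats, where it called 2962 of 11693 genes. In the other comparisons it gave 0 members. The replicate numbers only follow the order of rat numbers, and same-numbered rats of the bPYX+NT3 and naïve groups had deviations that correlated from -0.30 to 0.53, 5 of 6 pairs lying between 0.29 and 0.53 and 3 of 6 rats matching best with their own number, a hint from the data and not from the design. Not every pair passed 0.1, so the numbers were not taken to pair the rats. The causes were not tested. Of 2412 results for single genes under an alternative, 2319 stayed on the same side of the threshold, most of them uncalled throughout, 24 lost a call, 63 gained one and 6, called in either fit, turned their sign. In all, 200 changed sign, called or not.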
